A study of Zea mays with 192 samples.

Results

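The 73 gene models described here are maize genes whose transcripts were found mainly in leaf protoplasts transfected with a pool of basic helix-loop-helix (bHLH) transcription factors. They were chosen by measured values. A member had a unique molecular identifier (UMI, a tag that counts 1 captured RNA molecule) in at least 20% of the cells of the bHLH pool, and in the pool of pre-meiotic transcription factors (pre-meiotic TF pool, here the pre-meiotic pool) in at most 20% of that share. The table has 41187 rows, of which 41075 are gene models with a UMI, and 9521 of these reached 20% of the bHLH pool cells. Rows of constructs and of PHAS loci were left out by the rule, as were the gene models GRMZM2G021276, GRMZM2G163233, GRMZM2G139372 and AC233960.1_FG005, which pass it and are called the left-out factor models below (the first carries the symbol ms23 and the second ms32). With these 4 counted, the rule held for 0.809% of the 9521 models. The mirrored rule, which asks for detection mainly in the pre-meiotic pool, held for 133 of 8737 models (1.52%).

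Both groups were single protoplasts, cells freed of their walls, from leaves of B73 seedlings, a wild-type inbred line, raised without light to an age of 10 to 12 days. The bHLH pool comprised 96 cells that received bHLH factor constructs, and the pre-meiotic pool comprised 96 cells that received factors from anthers before meiosis. No untransfected cells were analysed here, leaves of more than one plant went into each protoplast preparation, and the labels name no separate transfections. Each pool is therefore 1 sample, no test between pools was made, and a difference between the pools cannot be told apart from a difference between 2 preparations.

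Factors of the bHLH family bind DNA in pairs through a basic region and a helix-loop-helix, often at short motifs called E-boxes. In maize anthers the factors Ms23, Ms32, bHLH51 and bHLH122 act in the tapetum, the inner layer of the anther wall that feeds the developing pollen. Tapetal cells make phased small RNAs (phasiRNAs) from transcripts of PHAS loci, and the study asked whether anther factors act on such loci in leaf cells, where those factors are not normally at work.

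Levels are given as TPM, here UMIs per 1000000 UMIs of the same cell, with no scaling by gene length, since the method (CEL-seq2) counts RNA ends. Cells of the bHLH pool summed to 3274116 UMIs (median 28577.5 per cell, 4699 to 148894), those of the pre-meiotic pool to 3029855 UMIs (median 26488 per cell, 953 to 88243). Fewer than 2000 genes were found in 2 cells of the bHLH pool and in 22 cells of the pre-meiotic pool. No 2 cells had identical values. Intervals have a confidence of 95% and count only the error of counting.

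All 73 members together took 3463 UMIs in the bHLH pool (0.106% of its UMIs) and 328 UMIs in the pre-meiotic pool (0.0108%). The UMIs of the pre-meiotic pool were thus 9.47% of those of the bHLH pool. Over the 8 rows of GFP-fused Ms23, Ms32, bHLH51 and bHLH122 constructs the numbers were 6591 UMIs in the bHLH pool and 35 in the pre-meiotic pool (0.531%), and over the 4 left-out factor models they were 15607 and 4 UMIs (0.0256%). How far the member transcripts were divided between the pools follows largely from the rule, which chose them by that contrast. Nothing is read from the difference to the constructs and the left-out factor models.

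The typical member was a rare transcript. Detection in the bHLH pool ran from 20.8% to 70.8% of cells, with a median of 26.0%, and in the pre-meiotic pool from 0% to 9.38%, with a median of 4.17%. For comparison, 8412 models, members included, lay within the same range of bHLH pool cells, from 20.8% to 70.8%. Their median was 36.5% of cells in the bHLH pool, above that of the members, and 30.2% in the pre-meiotic pool. Mean levels ranged from 6.44 to 118 TPM in the bHLH pool (median 12.0 TPM) and from 0 to 7.95 TPM in the pre-meiotic pool (median 1.23 TPM). The median member had 36 UMIs in the whole bHLH pool and 4 in the pre-meiotic pool, and where it was found in a bHLH pool cell it averaged 1.43 UMIs. Of the 73 members, 14 reached a mean of 20 TPM in the bHLH pool and 23 stayed under 10 TPM. In the pre-meiotic pool, 35 members were found in at most 3 cells.

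**Figure D1:**
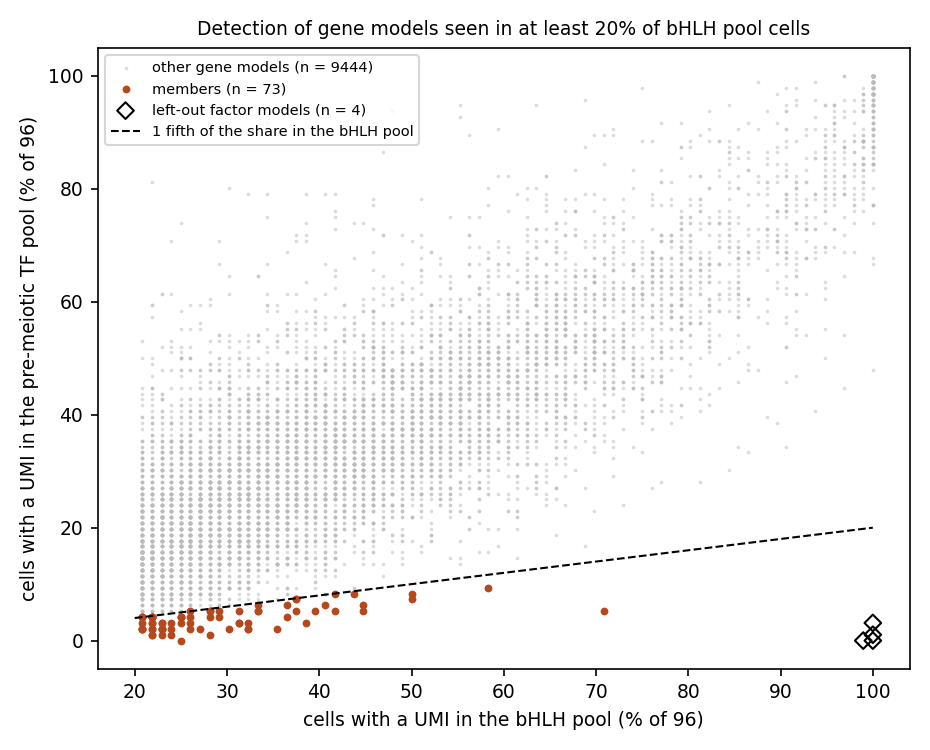
Each point is a gene model with a UMI in at least 20% of the bHLH pool cells, placed by its share of cells in the bHLH pool (x axis, % of 96) and in the pre-meiotic pool (y axis, % of 96), and the dashed line marks the limit of the rule. The 73 members lie on or below the line, mostly at 20% to 40% of bHLH pool cells, GRMZM2G118624 stands at 70.8%, and the 4 left-out factor models lie near 100%.

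Differences in level were expressed as a log2 ratio, (mean bHLH pool TPM + 10) over (mean pre-meiotic pool TPM + 10). The added 10 TPM shrinks the ratios of rare transcripts. Over the members the median log2 ratio was 0.94, with a range of 0.40 to 3.32, and over all 9521 models the median was 0.21. A log2 ratio of at least 1 was reached by 31 of the 73 members, against 4.62% of all models. These values come from the contrast that chose the members, and nothing is read from them beyond their size.

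GRMZM2G118624, which has no row in the reference table, had the highest level. Its TPM per cell in the bHLH pool had a median of 48.2 and reached 1061, with a mean of 118, and in the pre-meiotic pool it had a median of 0, a maximum of 163 and a mean of 2.87 TPM. It was found in 68 cells of the bHLH pool (70.8%, exact Clopper-Pearson interval 60.7% to 79.7%) and in 5 cells of the pre-meiotic pool (5.21%, 1.71% to 11.7%). Most cells of the bHLH pool thus held it and most cells of the pre-meiotic pool did not, and the highest cell of the pre-meiotic pool lay within the range of the bHLH pool. Its 331 UMIs in the bHLH pool, 9.56% of all member UMIs there, stood against 15 in the pre-meiotic pool, a depth-scaled ratio of 20.4 (12.2 to 36.9). At 4.87 UMIs per positive cell it was also the member with the most transcripts where it was found, and 1 cell held 34. In the pre-meiotic pool, 1 cell held 8 of the 15 UMIs. The interval of the ratio does not count such unevenness between cells.

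THX20 (GRMZM2G169580), named as a trihelix DNA-binding factor, came next. Its TPM per cell had a median of 24.8 and a mean of 37.0 in the bHLH pool and a median of 0 and a mean of 7.95 in the pre-meiotic pool. It was found in 56 cells of the bHLH pool and in 9 of the pre-meiotic pool, with 110 and 15 UMIs, a ratio of 6.79 (3.94 to 12.5). Its highest cell had 426 TPM in the bHLH pool, against 457 TPM in the pre-meiotic pool, so the top of the ranges coincided. No other member with an informative name was as widespread in the pre-meiotic pool.

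ABI22 (GRMZM2G008356), whose symbol belongs to the ABI3/VP1 family of transcription factors, averaged 30.8 TPM in the bHLH pool, against 3.61 TPM in the pre-meiotic pool. Its 40 cells in the bHLH pool and 8 in the pre-meiotic pool place it exactly at the limit of the rule. MGL3 (GRMZM2G096475, also mlg3) averaged 26.3 TPM in the bHLH pool, against 0.85 TPM in the pre-meiotic pool, with 95 and 2 UMIs, a ratio of 44.0 (11.8 to 368). It came in larger numbers per cell than most, with up to 15 UMIs and a mean of 2.79 in its 34 positive bHLH pool cells.

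The other 11 of the 15 highest members have no informative name. GRMZM2G330229, annotated as a transcribed pseudogene, averaged 26.0 TPM in the bHLH pool, against 1.57 TPM in the pre-meiotic pool, and GRMZM2G381019 averaged 25.9 and 1.66 TPM in the same order of pools. GRMZM2G097592 had 24.5 TPM in the bHLH pool and 2.52 in the pre-meiotic pool, and GRMZM2G104501 had 23.9 and 2.96. Next were GRMZM2G558204 (22.4 TPM in the bHLH pool and 2.89 in the pre-meiotic pool), GRMZM2G164714 (22.1 and 1.23), GRMZM2G414569 (21.8 and 2.47) and GRMZM2G004586 (21.4 and 2.78). GRMZM2G000044 (21.0 TPM in the bHLH pool and 0.79 in the pre-meiotic pool), GRMZM2G305822 (20.2 and 2.13) and GRMZM2G305900 (19.9 and 0.70) closed the group. All 15 were found in 31 to 68 cells of the bHLH pool and in 2 to 9 cells of the pre-meiotic pool.

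**Figure D2:**
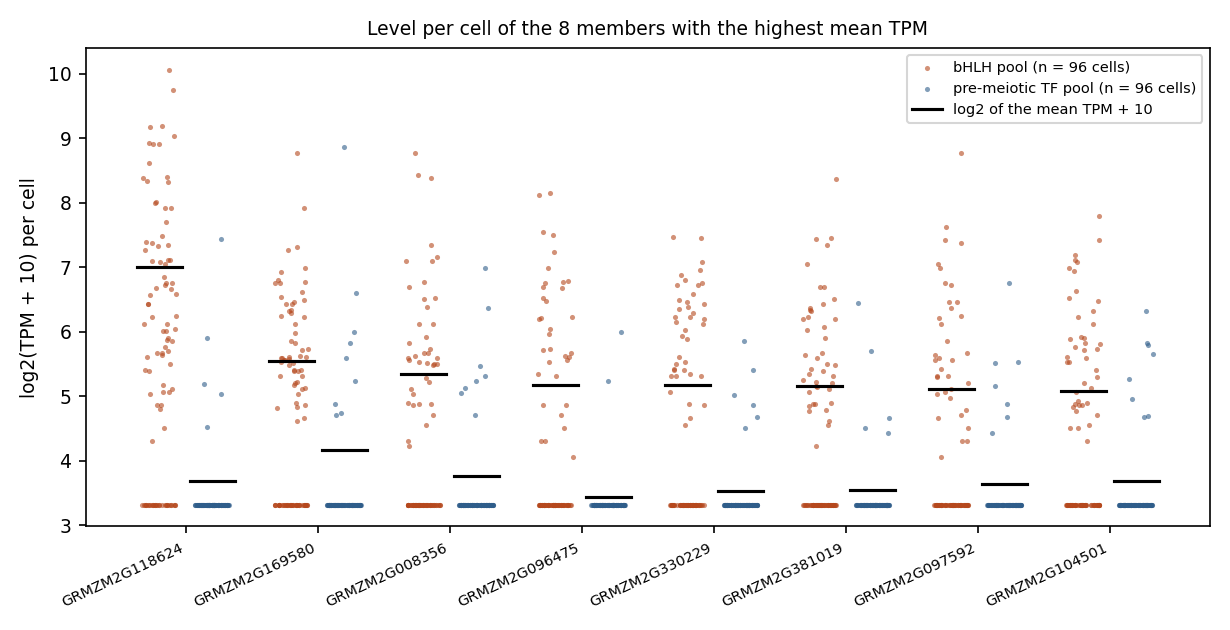
Each point is 1 cell, and the y axis gives log2 of its TPM plus 10 for the 8 members with the highest mean, with the bHLH pool left of the pre-meiotic pool for each member and a bar at log2 of the mean TPM plus 10. Cells at the bottom line have no UMI, and GRMZM2G118624 has the highest bar at a mean of 118 TPM in the bHLH pool against 2.87 TPM in the pre-meiotic pool.

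Some of the single highest values rest on depth. In the shallowest cell of the bHLH pool, with 4699 UMIs, 1 UMI was worth 213 TPM, and in the shallowest cell of the pre-meiotic pool, with 953 UMIs, it was worth 1049 TPM. All 9 members found in that bHLH pool cell had their highest TPM of the pool there, THX20, ABI22, GRMZM2G097592 and TAR3 among them with 2 UMIs each. The shallowest cell of the pre-meiotic pool held no member. For 8 of the 73 members the highest cell of the pre-meiotic pool equalled or passed that of the bHLH pool in TPM. The ranges of the pools overlapped for all 73 members, since each had cells at 0 TPM in both pools. No member was found in more than 70.8% of the bHLH pool cells.

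Outside the 15 highest, the widest detection was that of GRMZM2G172396, with 38 cells in the bHLH pool and 5 in the pre-meiotic pool (19.6 and 1.05 TPM). GRMZM2G116586 was found in 36 cells of the bHLH pool and 5 of the pre-meiotic pool, GRMZM2G013957 in 35 and 6, and GRMZM2G110044 in 35 and 4. Then came GRMZM2G094083, GRMZM2G139211 and GRMZM2G177511, each with 32 cells in the bHLH pool and with 6, 5 and 5 in the pre-meiotic pool. GRMZM2G115422 and GRMZM2G165099 had 31 cells each in the bHLH pool and 2 and 3 in the pre-meiotic pool. GRMZM2G136970, GRMZM2G145974 and GRMZM5G835118 tied at 30 cells of the bHLH pool, with 3, 5 and 3 in the pre-meiotic pool. GRMZM2G115422 differed from its neighbours in its UMIs, 82 in the bHLH pool and 2 in the pre-meiotic pool (ratio 37.9, 10.2 to 319), at 2.65 per positive bHLH pool cell. More than 2 UMIs per positive cell were seen for 7 members.

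A few members owed much of their count to 1 cell. GRMZM2G075742 had 31.1% of its 45 UMIs in the bHLH pool in a single cell, GRMZM2G387127 had 29.5% of 61 and GRMZM2G001145 had 25.0% of 44. Across the members the median share in the top cell was 10.3%. GRMZM2G087332 was at the other extreme, with 21 UMIs spread 1 to a cell.

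GRMZM2G110847 was the only member with no UMI in the pre-meiotic pool, where 0 of 96 cells allows up to 3.77% of cells with a UMI by the exact interval. That is a limit on cells with a UMI at this depth and not on cells that hold the transcript. Its 28 UMIs in 24 cells of the bHLH pool give a ratio with no upper bound and a lower bound of 6.57 by the interval used for the other members. GRMZM2G114055, with nearly the same UMIs cell by cell in the bHLH pool, had 2 UMIs in 1 cell of the pre-meiotic pool. The absence thus holds for GRMZM2G110847 only and not for both models. AC209208.3_FG001, GRMZM2G075742, GRMZM2G115354 and GRMZM5G876597 had 1 UMI each in the pre-meiotic pool, and 42, 45, 31 and 33 in the bHLH pool. Their ratios, from 28.7 for GRMZM2G115354 to 41.6 for GRMZM2G075742, have lower bounds from 4.78 to 7.10 and upper bounds from 1169 to 1681, so no order among them can be read. The lowest ratio was that of GRMZM2G510253, with 44 UMIs in the bHLH pool and 14 in the pre-meiotic pool (2.91, 1.56 to 5.75), and 9 of the 14 were in 1 cell. For all 73 members the interval of the ratio lay above 1, as the rule would largely bring about.

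Few members could be named. RefSeq names were looked up for Zm-B73-REFERENCE-NAM-5.0, whose gene table holds 34 of the 73, 9 of them with an informative symbol, and the other 39 have no row in it. Beside THX20, ABI22 and MGL3 the named members were TAR3, cko2, lcyE, AUX35, TIFY29 and zds1. Positions are not given, since that assembly is not the build of the data (B73 RefGen_v3).

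A pair of named members belongs to carotenoid synthesis, the plastid pathway that makes the yellow and orange accessory pigments of photosynthesis and the precursors of abscisic acid. The enzyme lcyE (GRMZM2G012966), lycopene epsilon-cyclase, leads lycopene into the branch that ends in lutein. Its transcripts were found in 29 cells of the bHLH pool and 2 of the pre-meiotic pool, with mean levels of 13.8 and 0.73 TPM and a UMI ratio of 22.2 (5.82 to 189). Upstream of it, zds1 (GRMZM2G454952, also vp9) encodes zeta-carotene desaturase, a step on the way to lycopene. It was found in 21 cells of the bHLH pool and 3 of the pre-meiotic pool, at 8.01 and 0.54 TPM (ratio 7.71, 2.35 to 39.9). The reference table places the ID of lcyE at 2 loci, and that of zds1 at 1 locus that it shares with GRMZM2G454928, which had 2 UMIs in the bHLH pool and none in the pre-meiotic pool.

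Other carotenoid genes were listed after the values of the members were known. Of 13 matched models, 4 were found in at least 20% of the bHLH pool cells, and 2 of these 4 were the members, where 0.809% of all models met the rule. The median log2 ratio was 0.82 over the 4, which were kept by their detection in the bHLH pool and of which 2 were chosen for their difference, and 0.12 over all 13, with 8 above 0 and 5 below. Nothing is read from either for the pathway. Phytoene desaturase pds1 (GRMZM2G410515), the step before zeta-carotene, was found in 48 cells of the bHLH pool and 29 of the pre-meiotic pool, at 26.7 and 10.2 TPM (log2 ratio 0.86). A second pds1 model, GRMZM5G815358, was found in 11 and 9 cells in the same order, with 12 UMIs in each pool (0.13). The beta-carotene hydroxylase crtRB1 (GRMZM2G152135) was found in 24 and 28 cells of the bHLH and pre-meiotic pools, at 14.1 and 13.3 TPM (0.05). Phytoene synthase psy1 (GRMZM2G300348), the entry step, fell short of 20% with 18 cells in the bHLH pool and 8 in the pre-meiotic pool. Below 0 were vp14 (log2 ratio -0.40), CRTISO2 (-0.16), CRTISO1 (-0.15), BCH1 (-0.12) and CCD1 (-0.10), each found in at most 12 cells of the bHLH pool and at most 13 of the pre-meiotic pool.

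The other named members were TAR3, AUX35, cko2 and TIFY29. TAR3 (GRMZM2G141810), a tryptophan aminotransferase related gene of the family that starts auxin synthesis, was found in 20 cells of the bHLH pool and 2 of the pre-meiotic pool (14.5 and 0.70 TPM). AUX35 (GRMZM2G167794), a symbol of the series given to Aux/IAA genes, was found in 24 cells of the bHLH pool and 3 of the pre-meiotic pool (13.0 and 1.05 TPM). Among 12 AUX models, 3 reached 20% of the bHLH pool cells. Their log2 ratios were 1.06 for AUX35, 0.08 for AUX10 and -1.12 for AUX34, so the family had ratios of both signs.

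The cytokinin oxidase cko2 (GRMZM2G050997), an enzyme of the family that degrades cytokinins, was found in 28 cells of the bHLH pool and 5 of the pre-meiotic pool (14.2 and 3.20 TPM, ratio 7.03, 2.76 to 22.9). It was the only one of 8 matched cytokinin oxidase models to reach 20% of the bHLH pool cells. Its relative cko1 (GRMZM2G146644) had 19 cells in the bHLH pool and 30 in the pre-meiotic pool, with a log2 ratio of -0.78.

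TIFY29 (GRMZM2G036288) belongs to the family that includes the jasmonate repressors. It was found in 28 cells of the bHLH pool and 4 of the pre-meiotic pool, at 12.8 and 1.03 TPM (ratio 6.17, 2.60 to 17.8). Of 21 TIFY models, 13 reached 20% of the bHLH pool cells, with a median log2 ratio of 0.15. TIFY9 (GRMZM2G145412) had a higher log2 ratio than TIFY29, 1.40 against 1.05, but with 49 cells in the bHLH pool and 15 in the pre-meiotic pool it did not meet the rule. THX20 was likewise alone in its family: of 13 trihelix models, 8 were found in at least 20% of the bHLH pool cells, with a median log2 ratio of 0.07, and only THX20, at 1.39, was a member. These family lists were also made after the members were known, and their medians are over models kept by detection in the bHLH pool. Over all matched models the median log2 ratio was 0.07 for TIFY (21 models), 0.07 for trihelix (13), 0.02 for cytokinin oxidase (8) and -0.05 for AUX (12).

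Members were also counted on lists of genes with a bearing on anther development, small RNAs and stress, to be read against the 0.809% of all models that met the rule. Among 313 models with the symbol of a transcription factor family, 82 reached 20% of the bHLH pool cells, and 2 of these were members (THX20 and ABI22), beside 2 left-out factor models. The median log2 ratio was 0.07 over the 82 and -0.03 over all 313. Of the tapetum genes, ms26 and ms8 were matched, each had 1 UMI in the bHLH pool and none in the pre-meiotic pool, and no member is on that list. None of the 6 matched genes of small RNA machinery was a member, nor any of the 12 matched lipid transfer, sporopollenin and wall genes, which all stayed under 20% of the bHLH pool cells. Lists of this size hold too few models for a count of 0 to differ from the share over all models.

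Of 20 heat shock proteins and factors, 13 were found in at least 20% of the bHLH pool cells and 0 were members. This list, too, is too small for a count of 0 to differ from the 0.809% of all models. The 13 had a median log2 ratio of 0.86, with 5 at 1 or above. Over all 9521 models the median was 0.21, and 4.62% were at 1 or above. Summed heat shock levels per cell had a median of 12645 TPM in the bHLH pool (2857 to 31270) and of 5369 TPM in the pre-meiotic pool (759 to 27376). Over all 20 the median log2 ratio was 0.49, with 13 above 0 and 7 below. The lowest was HSF2 (GRMZM2G088242), found in 0 cells of the bHLH pool and 63 of the pre-meiotic pool (log2 ratio -3.08), followed by HSF6 (GRMZM2G059851), found in 18 and 50 cells (-1.76). The table also has a GFP construct row named for HSF2. The part of heat shock genes in the levels of the members was not tested.

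Markers of leaf and other cell types included no member. The C4 mesophyll markers (3 matched) summed to a median of 71.4 TPM per cell in the bHLH pool (0 to 410) and 85.3 TPM in the pre-meiotic pool (0 to 1137). Those of the bundle sheath (2 matched) had a median of 0 TPM in both pools, with rbcS (GRMZM2G098520) at 0 UMIs in the bHLH pool and 1 in the pre-meiotic pool. The other, me3 (GRMZM2G085019), was found in 25 cells of the bHLH pool and 24 of the pre-meiotic pool, at 10.7 and 17.5 TPM. Of the mesophyll markers, ppdk1 (GRMZM2G306345) was found in 70 cells of the bHLH pool and 73 of the pre-meiotic pool, but pep1 (GRMZM2G083841) was seen in 7 cells of the bHLH pool and 16 of the pre-meiotic pool, with 3 and 11 for mdh6 (GRMZM2G129513). Of these leaf markers, ppdk1 was thus common in these etiolated cells, me3 was found in fewer cells, and pep1, mdh6 and rbcS were rare. The leaf label is that of the submitters. Epidermis markers (4 matched) had medians of 27.3 and 0 TPM in the bHLH and pre-meiotic pools, and markers of dividing cells (5 matched) had medians of 18.4 and 23.4 TPM. The vascular marker sut1 was found in 6 cells of the bHLH pool and 7 of the pre-meiotic pool. Of 3 matched anther wall and pre-meiotic genes, afd1 was found in 42 cells of the bHLH pool and 34 of the pre-meiotic pool (log2 ratio -0.01) and ZYP1 in 4 and 2 cells. The third, ocl4, had no UMI in the bHLH pool and 1946 in the pre-meiotic pool, and the table has a GFP construct row named for it, so it is no marker of cell type here. Whether cell type has a part in the detection of the members was not tested.

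Seen by cell, the contrast in members between the pools follows largely from the rule, which chose them by their detection in both pools. A cell of the bHLH pool held UMIs of a median of 21.5 members (3 to 56), and a cell of the pre-meiotic pool of a median of 2 (0 to 10). No cell of the bHLH pool was without a member, against 17 cells of the pre-meiotic pool, and at least 10 members were found in 79 and 1 cells. The pre-meiotic pool also had more cells with fewer than 2000 genes, 22 against 2. The ranges overlapped, since 21 cells of the bHLH pool held no more than the 10 members of the highest cell of the pre-meiotic pool.

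Depth went with these counts. The number of members per cell had a Spearman rho with total UMIs of 0.81 in the bHLH pool and 0.65 in the pre-meiotic pool, over 96 cells each. The cell with 56 members was also the deepest, with 148894 UMIs. After every cell was thinned to 5000 UMIs, the medians were 4 members (0 to 15) over 95 cells of the bHLH pool and 0 members (0 to 3) over 86 cells of the pre-meiotic pool, with 1 and 10 shallower cells left out. Thinned this way, GRMZM2G118624 was found in 28.4% of the bHLH pool cells and 1.16% of the pre-meiotic pool cells, and THX20 in 20.0% and 0%. The others fell below 20% in the bHLH pool. Thinning does not free the contrast between the pools from the choice of the members.

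**Figure D3:**
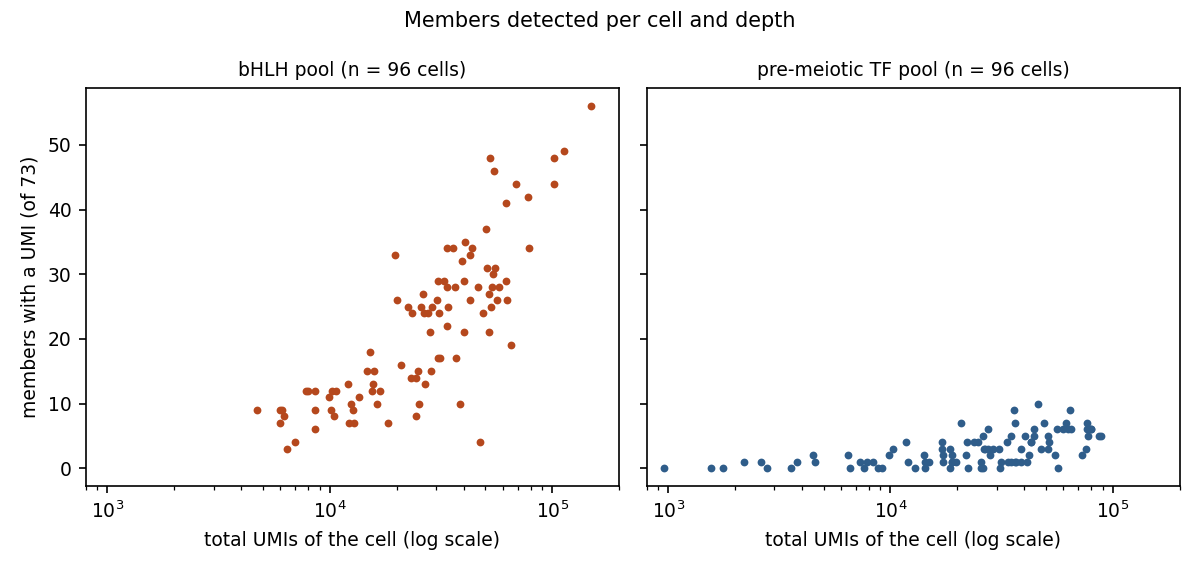
Each point is 1 cell, placed by its total UMIs (x axis, log scale) and by how many of the 73 members had a UMI in it (y axis), for the bHLH pool on the left and the pre-meiotic pool on the right. The counts climb with depth to 56 in the bHLH pool and stay at or under 10 in the pre-meiotic pool.

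As a summed level, members made up a median of 1090 TPM per cell in the bHLH pool (106 to 2767) and 102 TPM in the pre-meiotic pool (0 to 457). That contrast, too, follows largely from the choice of the members. Of the bHLH pool cells, 5 lay at or under the highest cell of the pre-meiotic pool, and 46 cells of the pre-meiotic pool lay at or over the lowest of the bHLH pool.

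Levels within the bHLH pool were not used by the rule, and they were set against the constructs. The 8 construct rows summed to a median of 1975 TPM per cell in the bHLH pool (81.6 to 6149) and of 0 TPM in the pre-meiotic pool (0 to 145). A member was counted as following the constructs when its TPM had a Spearman rho of at least 0.3 with the construct TPM over the 96 cells of the bHLH pool. The cells come from 1 transfected pool, and both levels are divided by the same total, so these coefficients are descriptions.

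No member followed the summed constructs by this measure, where 113 of the 9521 models did (1.19%). For Ms23 the count was 0 members against 1.18% of all models, for bHLH51 0 against 1.02% and for bHLH122 0 against 0.987%. For Ms32 it was 1 member, GRMZM2G414569 at a rho of 0.32, against 1.11% of all models. At such shares, counts of 0 or 1 over the members are near the share over all models and set the members apart in no way. The 9521 models also had a higher median detection, 39.6% of the bHLH pool cells against 26.0% for the members. With the summed constructs the rho of the members had a median of 0.02 and ran from -0.26 to 0.22, and over all 9521 models the median was 0.01. The 4 left-out factor models had rho values from 0.72 to 0.83 in the same cells, at 15607 UMIs among them. Ms23 and ms32, which share their names with constructs, are among these models. Whether UMIs of the left-out models come from the introduced transcripts was not tested, so their rho values are no measure for the members. With a mean of 1.43 UMIs per positive cell for the median member, a weak relation could not have been read from these counts.

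**Figure D4:**
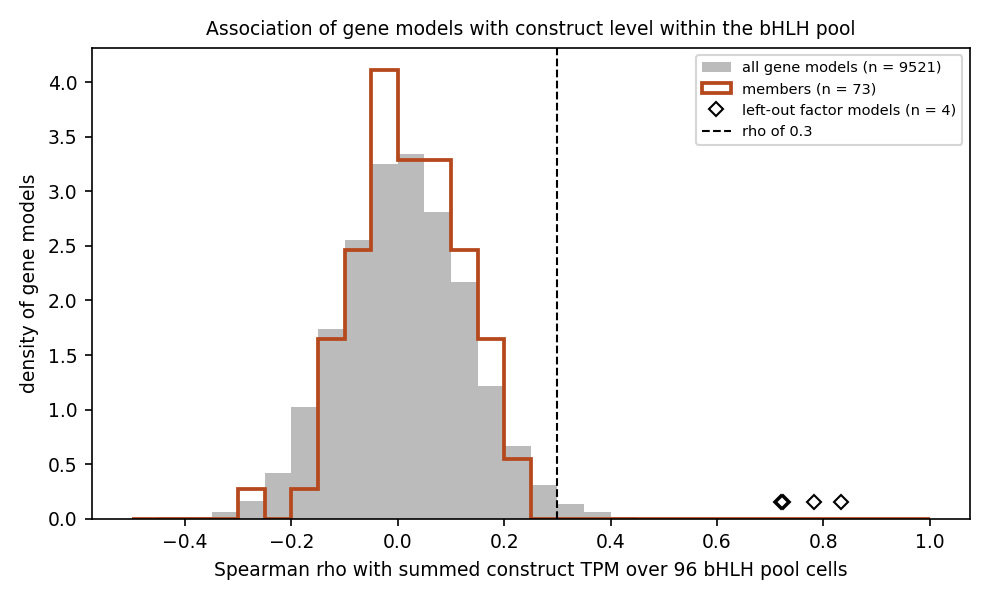
The histograms give the density of gene models (y axis) by their Spearman rho with summed construct TPM over the 96 bHLH pool cells (x axis), in grey for all 9521 models and outlined for the 73 members, with diamonds for the 4 left-out factor models. The members lie between -0.26 and 0.22, left of the dashed line at 0.3, and the diamonds lie from 0.72 to 0.83.

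Only 4 members were found in at least 50% of the bHLH pool cells, where a rho rests on most of the cells. Their values with the summed constructs were 0.13 for GRMZM2G118624, 0.13 for THX20, -0.04 for GRMZM2G004586 and -0.05 for GRMZM2G558204. By factor, the highest pairs were GRMZM2G414569 (0.25) and GRMZM2G104501 (0.19) with Ms23, and GRMZM2G414569 (0.32) and GRMZM2G172396 (0.24) with Ms32. With bHLH51 they were GRMZM2G136970 (0.27) and GRMZM2G139211 (0.24), and with bHLH122 GRMZM2G305900 (0.22) and GRMZM2G094083 (0.21). The lowest value with the summed constructs was that of GRMZM2G073059, at -0.26. Total UMIs of the cell gave larger counts: 15 of the 73 members had a rho of at least 0.3 with depth, against 21.0% of all models.

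Summed over all members, the level did show a positive relation to the constructs, and so did the sum of other models within the same range of detection. Summed member TPM had a rho of 0.34 with summed construct TPM over 96 cells (Pearson r of the log2 levels 0.38), and 0.31 without GRMZM2G118624. The partial rho given total UMIs was 0.31. The summed TPM of all other models within the members' range of bHLH pool detection had a rho of 0.34 as well (Pearson r 0.43, partial rho 0.32). The most abundant model, GRMZM2G028910, had a rho of -0.23, and its level enters the total by which every other level is divided. The coefficients of both sums were alike, but the second sum covers far more models. Models in that range, members included, had a median detection of 36.5% of bHLH pool cells, against 26.0% for the members. Whether the relations are of the same size cannot be told from these sums.

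Single cells bear on that relation. Without the 2 cells farthest from the median construct level (6149 and 6048 TPM) the rho of the summed members was 0.37, and without the 2 cells with the least construct (81.6 and 592 TPM) it was 0.29. The cell with 81.6 TPM of constructs held 8 members and that with 592 TPM held 4.

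**Figure D5:**
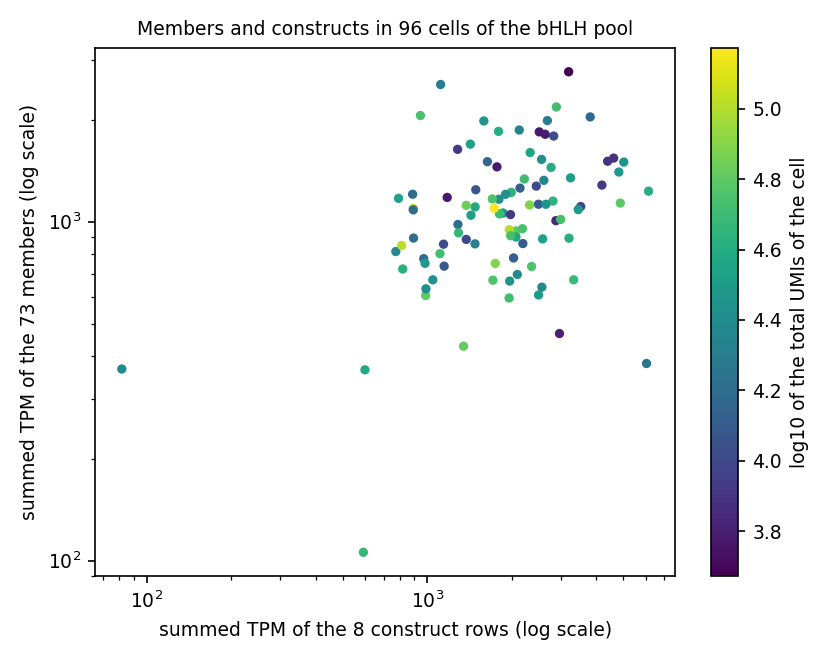
Each point is 1 of the 96 bHLH pool cells, placed by the summed TPM of the 8 construct rows (x axis, log scale) and of the 73 members (y axis, log scale), with the colour giving log10 of its total UMIs. The middle 50% of cells lie between 813 and 1338 TPM of members, 1 cell lies at 106 TPM, and the 2 cells with the least construct are on the left.

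Members varied mostly apart from each other. Over 2628 pairs of members the median rho across the bHLH pool cells was 0.07, and over all pairs of the 9521 models it was 0.06. A rho of at least 0.3 was seen for 59 pairs of members (2.25%), against 1.53% of all pairs. Only 3 pairs passed 0.5, and these had nearly the same UMIs cell by cell. GRMZM2G022386 and GRMZM2G091541 had a rho of 0.95, with equal UMIs in 22 of the 25 cells that held either. For GRMZM2G110847 and GRMZM2G114055 the rho was 0.92, with equal UMIs in 21 of 25 cells, and the reference table places both IDs at the same loci. GRMZM2G004586 and GRMZM2G558204 had a rho of 0.80 and equal UMIs in 41 of 52 cells. Whether these pairs share reads or overlap was not tested, and counting each pair once leaves 70 members. GRMZM2G000044 and GRMZM2G305900 had a lower rho, 0.39, but equal UMIs in 16 of the 21 cells that held both.

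The models outside the members whose TPM was most like the summed member TPM were GRMZM2G096211 (rho 0.49), GRMZM2G144782 (0.49) and eif3 (GRMZM2G093050, 0.48), over 96 cells of the bHLH pool. They were common transcripts in both pools, found in 69, 87 and 92 cells of the bHLH pool and in 52, 65 and 75 cells of the pre-meiotic pool. Their rho with the summed constructs ran from 0.27 to 0.37.

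Membership was fine-grained at both limits. At the limit on detection, 8 members were found in exactly 20 of the 96 bHLH pool cells, and 7 models that met the other limit were found in 19. Just inside were GRMZM2G041109, GRMZM2G087712, GRMZM2G101472, TAR3 and GRMZM2G413201, with 7.32 to 14.5 TPM in the bHLH pool and 2 to 4 cells in the pre-meiotic pool. Just outside were GRMZM2G047167, GRMZM2G055435, GRMZM2G069357, GRMZM2G074615 and GRMZM2G134415, with 5.19 to 8.90 TPM in the bHLH pool and 1 to 3 cells in the pre-meiotic pool.

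At the limit on the other pool, 5 members had a share in the pre-meiotic pool of exactly 20% of that in the bHLH pool. These were ABI22, GRMZM2G101472, GRMZM2G163691, GRMZM2G445947 and GRMZM2G538888, found in 20 to 40 cells of the bHLH pool and 4 to 8 of the pre-meiotic pool. The nearest models beyond it were GRMZM5G870282 and GRMZM5G897976 (39 cells in the bHLH pool and 8 in the pre-meiotic pool each), GRMZM2G412604 (35.4% and 7.29% of cells), arpp2a-2 (GRMZM2G102891) and GRMZM5G856881 (29 and 6 cells each). In all, 58 models had a share in the pre-meiotic pool of over 20% and at most 25% of that in the bHLH pool, so the members pass without a gap into the other models.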

How the data were processed

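Polyadenylated RNA of single protoplasts, 96 per pool, was profiled with CEL-seq2, per the labels' protocols. HISAT2, SAMtools and UMI-tools on B73 RefGen_v3 are named, per the submitters' processing notes. For versions, annotation, strand use and cell filters, nothing was stated in those sources. The deposited values were taken as a scaled signal made by the authors: each value is a UMI number times 1000000 over a cell total, but the totals had been recycled down the rows. Undoing this gave whole UMIs for all 1001042 nonzero values, within 0.001 UMI, and TPM was recomputed per cell. The depth ran from 953 to 148894 UMIs per cell.

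Cells were grouped by the labels, and each pool counts as 1 sample. Each label names a single protoplast, so no doublet caller was run, and no cell was left out of the main values. The labels give no list of constructs per pool. The 8 construct rows are those with GFP and Ms23, Ms32, bHLH51 or bHLH122 in the name. Means are over 96 cells, zeros included. Ratios use summed UMIs per 1000000 with intervals from the exact binomial one. Named are the 15 members with the highest mean, the 10 next by share of cells (12 with ties), all with an informative symbol, those with the highest and lowest rho, those at the limits, and a few whose values stood out and were chosen after these were seen. Members and lists were chosen with earlier results of these data known. Scripts ran in Python 3.11.15 with numpy 2.4.6, pandas 2.3.3 and scipy 1.17.1, were tested on simulated data, and the alternatives tried were other limits, thinning to 5000 UMIs, other pseudocounts and other scalings. Promoter sequences were not used here.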

Additional observations from a re-analysis of the deposited data

How the results depend on the processing

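The number of members moved with the limits of the rule. It was 28 with detection in at least 30% of the bHLH pool cells and 302 with at least 10%, 28 with a share in the pre-meiotic pool of at most 1 in 10 of that in the bHLH pool, and 296 with at most 1 in 3. With all cells thinned to 5000 UMIs the rule held for 31 models, of which 2 were among the 73. Leaving out cells with fewer than 2000 genes gave 60 members, 56 of them shared, and counting near-identical pairs once (chosen after seeing the data) gave 70.

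The median log2 ratio of the members, 0.94, was 2.59 with a pseudocount of 1 TPM, 0.14 with 100 TPM, 1.66 on the values as deposited, 1.11 with the most abundant model left out of the totals, and 3.32 over the 1 member with a mean of at least 50 TPM. From summed UMIs it was 0.89 and without the shallow cells 0.96. Its sign is fixed by the choice of the members and says nothing of stability.

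By the values as deposited 32 members followed the construct levels, as did 57.6% of all models. Those values carry the recycled totals as a factor. In the 6 other alternatives, 1 of them added after seeing the data, 0 members did. Sparse counts limit every rho, and each pool is 1 sample. No paired analysis was possible because the numbers in the labels only count the cells of each pool and no test was made.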

Other observations

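Some models on the lists had a far higher mean level in the bHLH pool without meeting the rule. The small heat shock gene hsp18/hsp26 (GRMZM2G149647) averaged 1897 TPM in the bHLH pool, against 204 TPM in the pre-meiotic pool, and was found in 96 and 74 cells. The heat shock factor Hsf05 (GRMZM2G133023) averaged 150 TPM in the bHLH pool, against 30.9 TPM in the pre-meiotic pool (83 and 47 cells). A second Hsf05 model, GRMZM2G132971, was found in 17 cells of the bHLH pool and 22 of the pre-meiotic pool (log2 ratio -0.43). Dicer-like dcl1 (GRMZM2G040762), which cuts microRNA precursors, averaged 58.7 TPM in the bHLH pool, against 7.58 TPM in the pre-meiotic pool (69 and 28 cells). Of the 6 matched models of small RNA machinery, 2 had a log2 ratio above 0 and 4 below, with a median of -0.04. NAC12 (GRMZM2G018436) averaged 38.1 TPM in the bHLH pool, against 7.08 TPM in the pre-meiotic pool (53 and 13 cells). A second model with the symbol NAC12, GRMZM2G125777, averaged 56.5 TPM in the bHLH pool, against 29.1 TPM in the pre-meiotic pool. It was found in 69 and 47 cells and had a lower log2 ratio, 0.77 against 1.49. Of the 313 models with a transcription factor symbol, 128 had a log2 ratio above 0 and 185 below. The models hsp18/hsp26, GRMZM2G133023, dcl1 and GRMZM2G018436 were picked after their values were seen. With 1 sample per pool none of the differences has a replicate check.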
